A study of Mus musculus with 38 samples.

Results

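The regions described are H3K4me1 peaks of mouse liver that lie within H3K27me3 chromatin and carry neither of the marks of active promoters and enhancers. Of 74275 H3K4me1 peaks in the male list, 63009 overlapped a female H3K4me1 peak by 1 bp or more, 6702 of these lay fully inside a male H3K27me3 island, and 5444 of those also overlapped a female H3K27me3 island. Removing the 2256 that overlapped an H3K27ac or H3K4me3 peak of either sex left 3188 regions, called members below, which are 4.29% of all male H3K4me1 peaks and 5.06% of those with a female partner. The peak lists for H3K4me1, H3K27me3, H3K27ac and H3K4me3 therefore chose the members, and overlaps among these 4 marks are descriptions and not findings.

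Chromatin immunoprecipitation with sequencing (ChIP-seq) was done on livers of CD-1 mice, an outbred stock, 8 weeks old, without further treatment in the labels. Male livers gave 4 H3K4me1, 4 H3K4me3, 3 H3K27ac, 3 H3K27me3, 2 H3K36me3 and 2 H3K9me3 libraries. Female livers gave 3, 3, 3, 3, 2 and 2 libraries of the same marks in that order. All libraries with the same mark and sex came with 1 and the same file, which is thus a pooled list over 19 autosomes, no value has a spread between animals and no test between animals was made. Male H3K4me1 peaks held 12562838 reads and female ones 20459697, and H3K27me3 islands held 15305301 in males and 16904292 in females.

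H3K27me3 is laid down by Polycomb repressive complex 2 and covers genes that are kept silent, among them many regulators of embryonic development. H3K4me1 marks enhancers and the flanks of promoters, and an enhancer that carries it together with H3K27ac is usually counted as active. Sites with H3K4me1 and H3K27me3 but no H3K27ac are known from embryonic stem cells as poised enhancers, and CpG-rich silent promoters with both H3K4me3 and H3K27me3 are known as bivalent. Peaks with H3K4me3 are left out of the members by definition. In bulk liver, a mark carried by few cells and a low level of it in every cell cannot be told apart, and neither can 2 marks on 1 chromosome from 2 marks in different cells.

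Of the listed developmental and signalling genes whose promoter could be placed on the build of the files (mm9), 6 had their transcription start inside a member. Their promoters are shown because these are members whose sequence and gene are both known, and because CpG content is the sequence feature in which members differed from H3K4me1 peaks outside H3K27me3. Each is the RefSeq promoter window of build GRCm38.p6, 250 bases before to 50 after the start, 5′ to 3′ on the gene's strand, with every CG in capitals.
Dlx1 promoter: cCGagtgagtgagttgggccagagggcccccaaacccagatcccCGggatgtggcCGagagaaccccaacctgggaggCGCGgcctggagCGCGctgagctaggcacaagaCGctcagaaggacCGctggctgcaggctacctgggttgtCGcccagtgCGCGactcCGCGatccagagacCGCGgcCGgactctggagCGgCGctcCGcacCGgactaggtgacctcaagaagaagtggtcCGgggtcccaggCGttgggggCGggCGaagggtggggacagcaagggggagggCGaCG
Gata2 promoter: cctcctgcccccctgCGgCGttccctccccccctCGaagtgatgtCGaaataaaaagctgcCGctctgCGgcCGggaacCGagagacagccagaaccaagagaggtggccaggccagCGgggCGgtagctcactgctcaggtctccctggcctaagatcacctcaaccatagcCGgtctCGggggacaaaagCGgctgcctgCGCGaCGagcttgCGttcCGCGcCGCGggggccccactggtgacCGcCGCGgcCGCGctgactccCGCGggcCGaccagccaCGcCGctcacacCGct
Gata5 promoter: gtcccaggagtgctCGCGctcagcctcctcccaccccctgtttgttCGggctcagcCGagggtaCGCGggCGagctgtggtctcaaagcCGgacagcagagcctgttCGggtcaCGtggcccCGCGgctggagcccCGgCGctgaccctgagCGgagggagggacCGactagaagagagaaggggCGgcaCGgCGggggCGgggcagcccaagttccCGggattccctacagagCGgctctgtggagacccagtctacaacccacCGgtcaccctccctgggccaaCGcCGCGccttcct
Hoxa11 promoter: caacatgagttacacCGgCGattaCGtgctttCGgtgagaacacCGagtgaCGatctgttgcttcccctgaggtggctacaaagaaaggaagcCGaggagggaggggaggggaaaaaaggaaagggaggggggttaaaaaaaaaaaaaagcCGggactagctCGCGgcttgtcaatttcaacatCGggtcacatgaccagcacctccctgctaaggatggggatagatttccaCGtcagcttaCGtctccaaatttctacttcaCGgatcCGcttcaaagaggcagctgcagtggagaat
Isl2 promoter: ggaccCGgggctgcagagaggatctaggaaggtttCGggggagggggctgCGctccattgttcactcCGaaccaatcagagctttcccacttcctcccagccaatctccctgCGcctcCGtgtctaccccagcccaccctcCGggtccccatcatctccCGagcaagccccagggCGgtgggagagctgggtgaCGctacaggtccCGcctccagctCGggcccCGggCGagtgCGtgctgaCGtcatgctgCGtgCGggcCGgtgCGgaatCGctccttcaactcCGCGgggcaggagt
Wnt11 promoter: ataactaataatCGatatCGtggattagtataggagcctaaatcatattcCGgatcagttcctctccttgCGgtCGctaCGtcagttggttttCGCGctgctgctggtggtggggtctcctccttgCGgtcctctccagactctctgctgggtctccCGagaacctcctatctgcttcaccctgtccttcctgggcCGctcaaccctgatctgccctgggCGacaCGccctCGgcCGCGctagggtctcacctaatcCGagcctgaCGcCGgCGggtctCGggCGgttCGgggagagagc

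The CG count of these windows was 27 for Dlx1, 32 for Gata2, 26 for Gata5, 15 for Hoxa11, 23 for Isl2 and 23 for Wnt11. The motif CG reads the same on both strands. It occurred at least once in 94.6% of all 32851 promoter windows of RefSeq, with a median of 7 per window, and 34.6% of the windows held 15 or more. Dlx1 and Isl2 encode homeodomain factors of neuronal development, Gata2 and Gata5 encode zinc-finger factors of blood and of heart and endoderm, Hoxa11 encodes a homeodomain factor of limb and kidney patterning, and Wnt11 encodes a secreted Wnt ligand.

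The Dlx1 start, at position 71367503 of chromosome 2 on the plus strand, lay in a member at chr2:71366293-71369053 with 248 tags and 8.95-fold enrichment over control in the male list. Its female partner held 326 tags at 8.20-fold enrichment. The Isl2 start (chromosome 9, 55388957, plus strand) lay in a member at chr9:55388575-55390879 with 212 tags at 11.8-fold enrichment in males and 241 tags at 10.03-fold in females. These are strong members, since the median member held 64.5 male tags.

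The Gata2 start (chromosome 6, 88143886, plus strand) lay in a member at chr6:88143380-88144159 of 780 bp, with 47 male tags at 6.70-fold and 119 female tags at 6.77-fold enrichment. The Gata5 start (chromosome 2, 180069385, minus strand) lay in a member at chr2:180068868-180070060 with 95 male tags at 8.05-fold and 110 female tags at 5.30-fold enrichment. The Hoxa11 start (chromosome 6, 52195810, minus strand) lay at the edge of a member at chr6:52195766-52196959 with 58 male tags at 5.75-fold and 35 female tags at 4.51-fold enrichment. The Wnt11 start (chromosome 7, 105987356, plus strand) lay in a member at chr7:105986463-105987936 with 75 male tags at 5.43-fold and 181 female tags at 7.77-fold enrichment. Female partners can be wider or narrower than the male peak and the female list is deeper, so the tag counts of the sexes are not on 1 scale. The H3K27me3 islands around these 6 starts had folds over control from 1.79 for Wnt11 to 2.37 for Dlx1, all above the median of 1.49 over all 20048 male islands.

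Members were narrow and moderately enriched H3K4me1 peaks. The median member was 1031 bp wide in the male list (10th to 90th percentile 689 to 1731), against 1439 bp for the 2256 peaks inside H3K27me3 that carried an active mark, 1129 bp for the 12657 partnered peaks outside H3K27me3 without an active mark (H3K4me1 alone), and 2067 bp for the 17139 partnered peaks outside H3K27me3 with H3K27ac in both sexes and no H3K4me3 (active distal). Tag density was 61.5 tags per kb of peak in members, 78.5 in peaks inside H3K27me3 with an active mark, 60.2 in H3K4me1 alone and 84.0 in active distal peaks. Members were thus close to H3K4me1-alone peaks in width and tag density, and both were below the classes with active marks.

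Fold enrichment, the authors' ratio over control, ordered the classes differently. Its median was 6.71 in members, 9.58 inside H3K27me3 with an active mark, 6.06 in H3K4me1 alone and 7.5 in active distal peaks. By score within the male list, 995 members (31.2%) fell in the better-scoring 50%, against 26.6% of H3K4me1-alone and 69.2% of active distal peaks. A false discovery rate of at most 5% was deposited for 59.0% of members, 53.0% of H3K4me1-alone and 79.8% of active distal peaks. In the female list the partners of the members had a median width of 1223 bp and a median fold of 6.96, and the female partner was the wider peak for 69.7% of members and 67.8% of all partnered peaks.

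**Figure D1:**
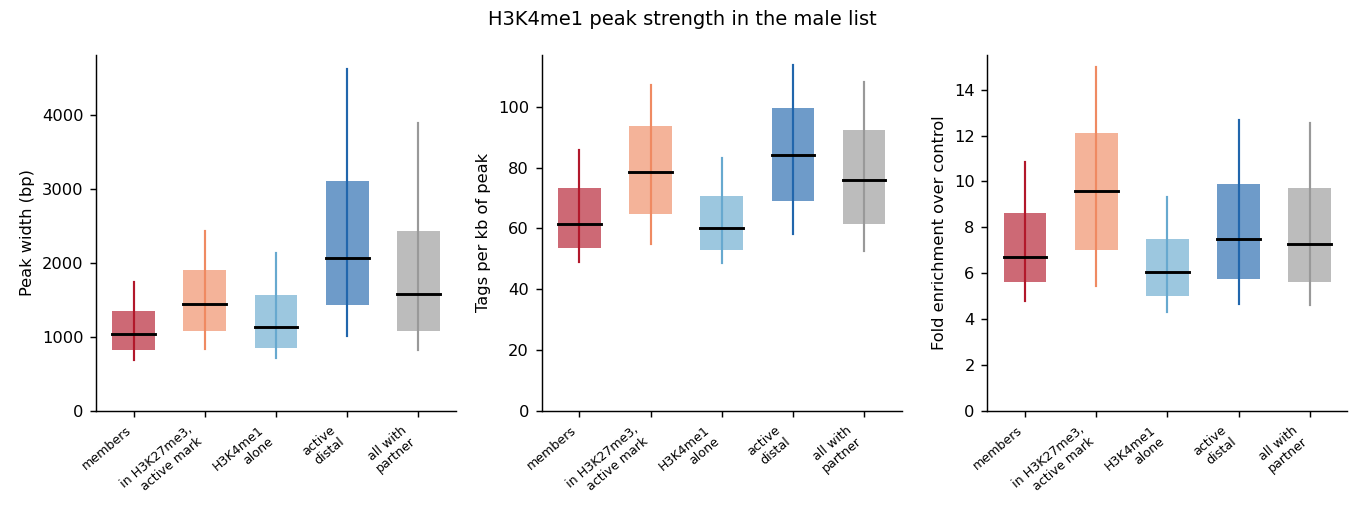
Width (bp), tags per kb and fold enrichment over control of male H3K4me1 peaks in 5 classes; the bar spans the 25th to 75th percentile, the line the 10th to 90th, and the black mark is the median. Members sit beside the H3K4me1-alone class in width and tag density (61.5 and 60.2 tags per kb), below both classes with active marks.

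Members near the limits of the definition were counted. The H3K27me3 island edge was within 400 bp of 39 members, and 135 other peaks that met every other condition crossed an island edge. An H3K27ac or H3K4me3 peak lay within 1 kb of 125 members and within 5 kb of 544, while 32 peaks were left out for an overlap of under 200 bp. Nearly all members, 3113 (97.7%), lay fully inside a female island as well.

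The members were spread over 2331 male H3K27me3 islands, which are 11.6% of all islands. A single member was found in 1775 islands, 388 islands held 2, and 168 islands held 3 or more, for 637 members in all. Islands that held members were wider than the other 17717 islands (median 32800 against 20800 bp), had a higher fold over control (1.75 against 1.47) and more H3K27me3 reads per kb (28.9 against 25.9). The median island fold was 1.70 with 1 member, 1.86 with 2 and 2.08 with 3 or more. Members per Mb of island did not follow width, at 6.79 in the narrowest quintile of islands, 3.77, 4.60 and 4.93 in the next 3, and 6.69 in the widest. The distance from a member to the nearest edge of its island had a median of 9200 bp, and 57.7% of members lay in the middle 50% of the island. The definition leaves out peaks that cross an edge, and its part in this share was not tested. The nearest other member was a median of 48710 bp away, and 927 members (29.1%) had another within 10 kb. By chromosome, members per Mb of male island lay between 3.87 on chromosome 16 and 7.79 on chromosome 11, and members made up between 3.56% (chromosome 18) and 6.99% (chromosome 2) of partnered peaks.

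Most members shared their island with no active mark at all, but islands with members held such marks more often than other islands. Neither H3K4me3 nor H3K27ac of either sex was found anywhere in the island for 1945 members (61.0%). Members of 1 island share this outcome, so 95% Clopper-Pearson intervals are given over islands only. For 938 members (29.4%) the island held an H3K4me3 peak elsewhere, and for 898 (28.2%) an H3K27ac peak. H3K4me1 at the member was alike in both settings, with a median of 64 tags and 6.7-fold enrichment where the island held H3K4me3 and 65 tags and 6.79-fold where it did not. It also varied little with the number of members, at a median of 63 tags in islands with 1 member, 65 with 2 and 68 with 3 or more. Counted over islands, neither mark was found in 65.2% (63.2 to 67.1) of islands with members and 84.4% (83.9 to 85.0) of other islands, and H3K4me3 was present in 26.0% (24.2 to 27.8) of islands with members and 11.2% (10.7 to 11.7) of other islands. Islands with members were wider, and within the widest quintile of islands the shares were 36.4% with members and 17.7% without, and within the narrowest quintile 12.4% and 8.60%. These intervals cover counting error only. Of the 17717 other islands, 13806 overlap a female island, and other islands need not hold an H3K4me1 peak. They are thus not a matched background, and these shares of marks that the definition used are descriptions. The nearest H3K4me3 peak was a median of 36770 bp from a member, against 18860 bp from H3K4me1-alone and 14950 bp from active distal peaks. The nearest H3K27ac peak was 31230 bp from the median member and 5201 bp from the median H3K4me1-alone peak.

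The islands with the most members included 2 Hox clusters. An island at chr1:120934000-121148799 (214800 bp) held 11 members, every male H3K4me1 peak in it, with no H3K4me3 or H3K27ac peak of either sex. It contains the placed promoter of Gli2, a transcription factor of hedgehog signalling, whose start (chromosome 1, 120950197, minus strand) lay inside a member with 125 male tags at 13.9-fold and 167 female tags at 7.96-fold enrichment. An island at chr2:74468800-74663199 (194400 bp, 2.40-fold H3K27me3) also held 11 members, and the placed promoters in it are those of the homeobox genes Evx2 and Hoxd4 and the noncoding RNAs Hoxd3os1 and Gm14424. Its members had 35 to 145 male tags.

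The island at chr6:51991600-52283199 (291600 bp, 2.35-fold) held 9 members with 30 to 89 male tags, along with 7 male H3K4me3 and 7 male H3K27ac peaks. It contains the placed promoters of Hoxa5, Hoxa7, Hoxa10, Hoxa11 and Hoxa13. The Hoxa5 start, 162.986 kb into the island, lay on an H3K4me3 peak of the female list alone. H3K27ac peaks ended just short of it, at 162.814 kb in the male and 162.498 kb in the female list. The starts of Hoxa7, Hoxa10, Hoxa11 and Hoxa13 lay on neither mark. Members lay both among the active peaks of this island and beyond them on the Hoxa13 side, as the map of the Hox islands shows. The fourth island, at chr11:105818400-105889199, held 7 members, no H3K4me3 or H3K27ac, and the placed promoters of Ace and Ace3; Ace encodes angiotensin-converting enzyme. A further 6 islands held 6 members each, 1 of them around the placed promoter of Tbx4, a T-box factor of hindlimb development.

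**Figure D2:**
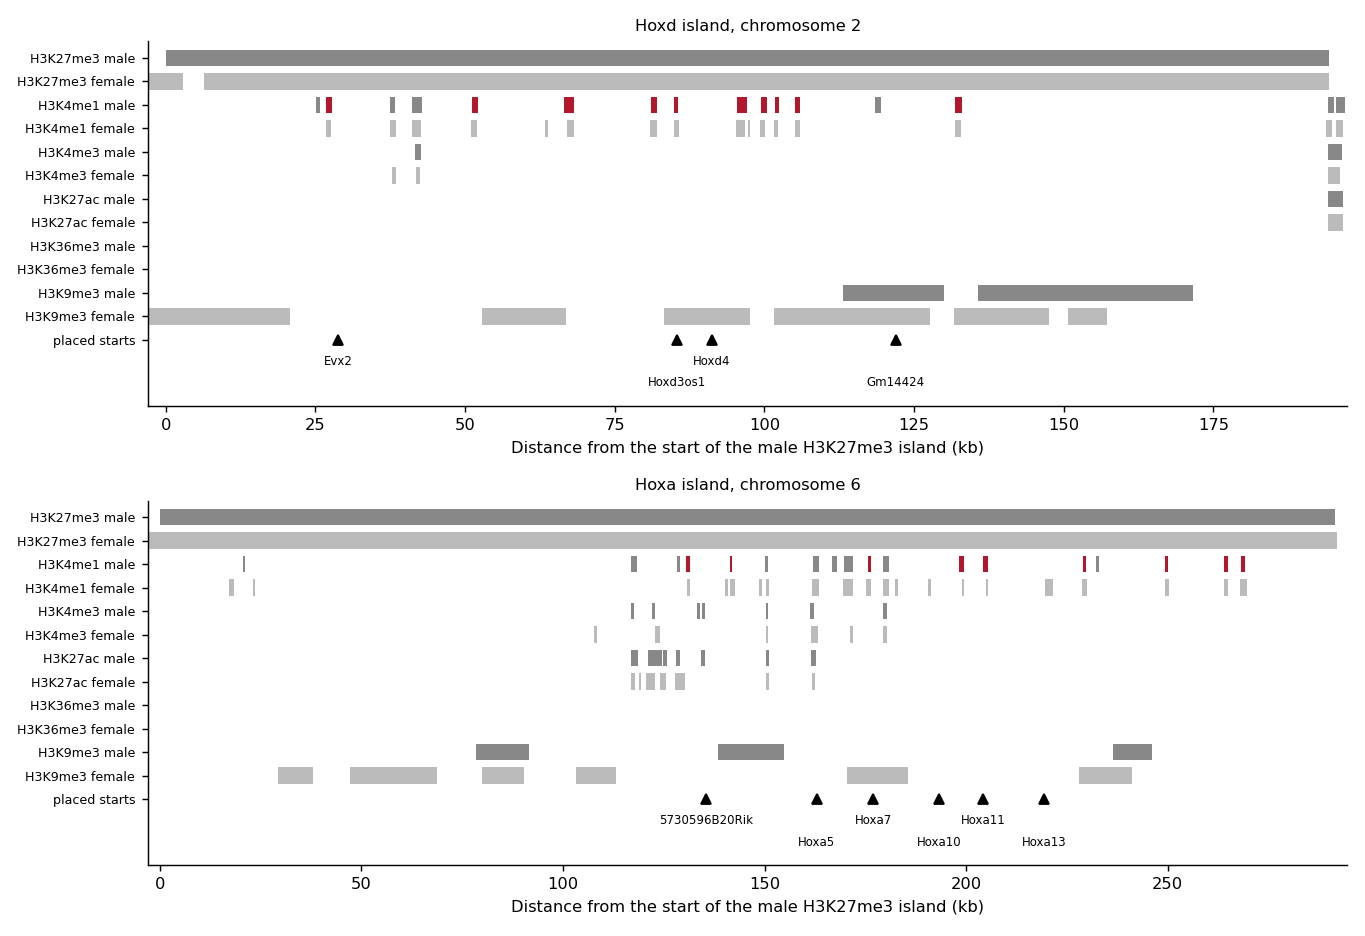
Peaks of 6 marks in male and female lists over 2 H3K27me3 islands, by distance in kb from the start of the male island; members are red, other peaks grey, and triangles are placed promoter starts. The 11 members of the Hoxd island lie along a stretch with few active peaks, and the 9 members of the Hoxa island lie among and beyond a stretch with 7 male H3K4me3 and 7 male H3K27ac peaks.

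Genes were named only through promoters placed on mm9 by exact matches of IgG reads, which succeeded for 11883 of 25748 autosomal genes of the RefSeq promoter table. The tissue label was checked on the hepatocyte list, and all 26 placed hepatocyte genes, among them Alb (albumin), Apoa1 (an apolipoprotein) and Hnf4a (a hepatocyte transcription factor), picked as examples with their values known, had their start on both H3K4me3 and H3K27ac, and 0 lay in a male H3K27me3 island. Placement was less complete for developmental regulators, at 27 of the 115 in the table.

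Of the lists examined, developmental regulators had the highest share in islands with members. Of the 27 placed, 25 lay in a male H3K27me3 island and 23 in an island that held a member (85.2%), against 3131 (26.4%) and 872 (7.34%) of all 11883 placed genes. Their start lay inside a member for 5 of 27 (18.5%), against 220 of all placed genes (1.85%). Hepatocyte genes had 0 of 26 in an island with a member, and the 27 sex-biased liver genes also had 0, although 7 of them lay in a male H3K27me3 island. The starts of all 7 lay on both H3K4me3 and H3K27ac. The definition leaves out peaks that overlap an active mark of either sex, and its part in these counts was not tested. Within 50 kb of a member lay 5 of the 26 hepatocyte starts (19.2%, against 16.3% of all placed genes). They were those of Fgg and Fga, 11406 and 29835 bp from 1 member with 122 male and 136 female tags, Slc10a1, the bile acid importer, at 30473 bp, Foxa2 at 34608 bp and Tat at 42099 bp. The list was chosen as known Polycomb targets with earlier results of these data in view, and its shares describe it and test nothing.

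In the 23 developmental genes the nearest member lay a median of 2232 bp from the start, against 4500 bp for the 872 placed genes in islands with members. A member lay within 5 kb for 15 of 23 (65.2%), against 51.3% of the 872. The 23 are few and some share an island, and Hoxa5 and Hoxa7 have the same nearest member. Hoxa7 had a member 456 bp away with 55 male tags, Prrx1, a homeobox factor of limb mesenchyme, had one at 527 bp with 102 tags, and Pou3f3, a neural POU factor, had one at 821 bp with 90 tags. Lhx3, a LIM-homeobox factor of pituitary and motor neurons, had one at 1401 bp with 65 tags, and Tfap2b, a neural crest factor, had one at 1642 bp with 33 tags. The farthest was that of Foxd2, a forkhead factor, at 38062 bp, and its start carried both H3K4me3 and H3K27ac. Cdx2 (intestinal identity) and Otx2 (forebrain) had their nearest member at 23835 and 11967 bp.

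The starts of Hoxa5, Lhx2 and Msx1 lay on H3K4me3 and not on H3K27ac, with a member 12552, 2232 and 5701 bp away. For Hoxa5, H3K27ac peaks of both sexes lay next to the start, as given above. The remaining 4 of the 27 were not within 50 kb of a member and are named after their values were seen. Neurod1 and Pou3f2, both neuronal factors, lay in H3K27me3 islands without a member, and Meis1 and Meis2, homeobox cofactors, lay outside H3K27me3 on both active marks.

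Of 17 placed signalling genes, 13 lay in a male H3K27me3 island, and 4 were in an island with a member: Wnt11, shown above, Sost and Sfrp2, which encode secreted Wnt inhibitors, and Dll3, a Notch ligand. Their nearest members lay at 0 bp for Wnt11, 2537 bp for Sost with 37 male tags, 4587 bp for Sfrp2 with 76 tags, and 6524 bp for Dll3 with 78 tags. The others in H3K27me3 islands had no member in their island and, apart from Fgf12 and Tgfb1, are named after their values were seen. Starts of Bmp5, Fgf10, Fgf12, Fgf14 and Sfrp5 lay on neither H3K4me3 nor H3K27ac. Those of Dll1, Tgfb1 and Wnt9a lay on both, and that of Bmp8a on H3K4me3 alone. Fgf12 and Tgfb1 had a member outside their island at 28068 and 11387 bp, with 32 and 63 male tags. In all, 6 of the 17 starts lay on both active marks.

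Promoters of other liver cell types gave few cases. In an island with a member lay Clec4f, a Kupffer cell lectin, with its nearest member 106427 bp away, Lrat, a retinoid-storage enzyme of stellate cells, with one at 26621 bp, and Pax5, the B cell factor that is also on the developmental list, with one at 5751 bp. Cd79a, of the B cell receptor, lay outside such islands, 46584 bp from a member with 83 male and 38 female tags. None of the 3 endothelial or 3 cholangiocyte genes placed was in such an island. How far cells other than hepatocytes contribute to the members was not tested.

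**Figure D3:**
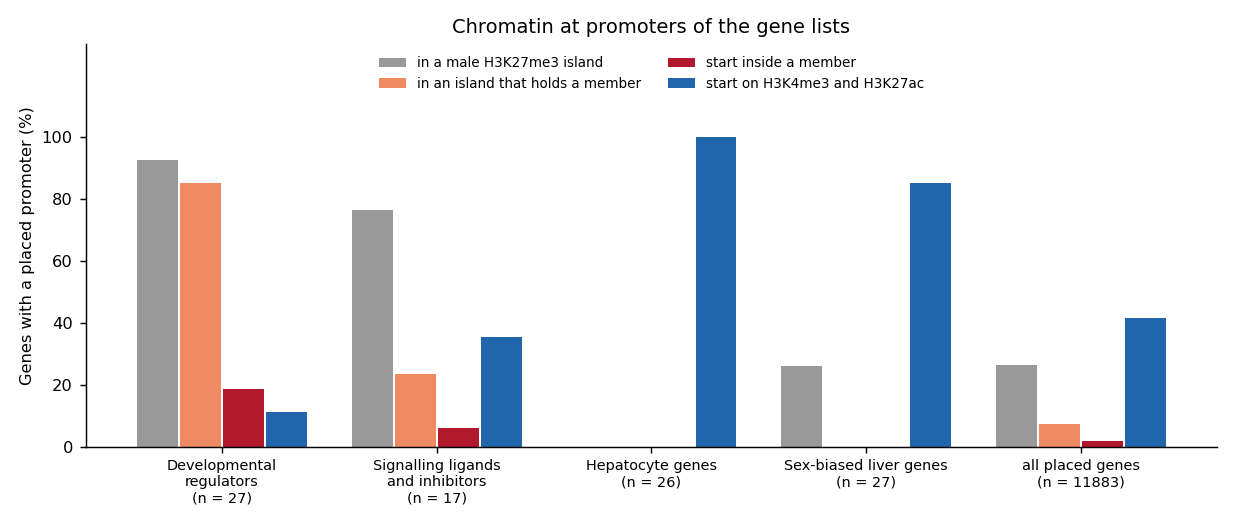
Share (%) of genes with a placed promoter that lie in a male H3K27me3 island, in an island holding a member, with the start inside a member, or with the start on both H3K4me3 and H3K27ac. Members are found with 85.2% of the developmental list, and all 26 hepatocyte genes carry both active marks.

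A placed start lay inside 215 members (6.74%), against 0.743% of H3K4me1-alone and 1.5% of active distal peaks. The absence of H3K4me3 there is set by the definition. The 220 genes concerned were 168 protein-coding and 52 long noncoding RNA genes. The following were picked from them after their values were seen, and all held more than the 64.5 male tags of the median member. Other genes with a start in a member had fewer, such as Plaat1 with 28 male tags, Col6a2 with 36 and Cyp2s1 with 58. The picks thus do not represent the 220 genes in strength or kind. Tbr1, a T-box factor of cortical neurons, had 125 male and 256 female tags in its member. Fezf1, a forebrain zinc-finger factor, had 158 male and 214 female tags. Ovol2, a zinc-finger factor of epithelia, had 240 male and 233 female tags. Map2, which encodes a microtubule protein of dendrites, had 108 male and 113 female tags, and Syt2, a synaptic vesicle calcium sensor, had 149 male and 175 female tags. Aldh1a2, which makes retinoic acid, had 140 male and 164 female tags.

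The strongest members by score were broad. The highest, at chr3:89122134-89127036 (4903 bp), held 460 male tags at 15-fold and 497 female tags at 17.1-fold enrichment and contains the start of Efna3, an ephrin ligand. The second, at chr10:79394954-79401426, was 6473 bp wide, with 802 male tags at 14.1-fold and 1530 female tags at 12.6-fold. The third, at chr2:73108632-73113184, had 417 male and 510 female tags in an island of 3.10-fold H3K27me3 and no H3K4me3. The seventh, at chr19:7341530-7344767, contains the start of Rcor2, a corepressor that binds the demethylase LSD1, and had 303 male and 256 female tags. The 10 strongest had 288 to 802 male tags, were 2453 to 6473 bp wide, and none had a deposited sex call in the authors' deposited table. Besides Efna3 and Rcor2, the nearest placed promoters to these 10 were 4040 bp (Yjefn3) to 100862 bp (Cdc42bpb) away.

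Marks that the definition did not use set the members apart from H3K4me1 outside H3K27me3. H3K36me3, which lies over transcribed gene bodies, overlapped 34 members (1.07%, 0.740 to 1.49), against 29 peaks inside H3K27me3 with an active mark (1.29%), 49.98% of H3K4me1-alone and 43.7% of active distal peaks. List by list, H3K36me3 overlapped 0.72% of members in males and 0.66% in females. The islands that hold members had 1.23% of their bases under each list, so the shares of members were lower. H3K9me3, a mark of heterochromatin, overlapped 674 members (21.1%, 19.7 to 22.6), against 15.2% (13.7 to 16.7) inside H3K27me3 with an active mark, 2.88% of H3K4me1-alone and 1.16% of active distal peaks. The share of members under each H3K9me3 list was below the share of bases of their own islands under it.

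The H3K9me3 lists of the sexes gave different counts. The male list overlapped 517 members (16.2%) and the female list 264 (8.28%), and 107 members were overlapped by both. Of the bases of islands with members, 19.4% were under male and 14.9% under female H3K9me3 islands, against 14.6% and 16.3% of other islands. The male H3K9me3 list covers 176 Mb in all and the female list 223 Mb. Members on H3K9me3 resembled the others in H3K4me1, with a median of 60.0 against 66.0 tags and 6.71-fold enrichment in both.

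Members were rich in CpG compared with H3K4me1 peaks outside H3K27me3, and less so than the peaks inside H3K27me3 that carry an active mark. From the sequences of IgG reads that overlap them, members had 50% GC (46.9 to 51.8 over the 19 chromosomes), against 52.1% inside H3K27me3 with an active mark, 42.0% in H3K4me1 alone, 42.9% in active distal peaks and 39.3% over the autosomes. The ratio of CpG observed over that expected from base composition was 0.430 in members (0.371 to 0.526 over chromosomes), 0.547 inside H3K27me3 with an active mark, 0.188 (0.166 to 0.215) in H3K4me1 alone, 0.189 (0.174 to 0.208) in active distal peaks and 0.179 over the autosomes. On every chromosome members therefore exceeded the highest value of either class outside H3K27me3.

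The CpG content was higher in the members than in the rest of their islands. In the same 2331 islands outside the members the ratio was 0.208, and in the other male islands 0.178. Members with a placed promoter start had 0.604 and the 2973 without one 0.409. The best-scoring quintile of members had 0.499 and the lowest-scoring quintile 0.361. IgG read density was lower in members (0.862 of the autosomal mean) than in H3K4me1-alone (1.14) or active distal peaks (1.25), and 428 members had no IgG read. The part of library GC preference in these values was not tested.

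**Figure D4:**
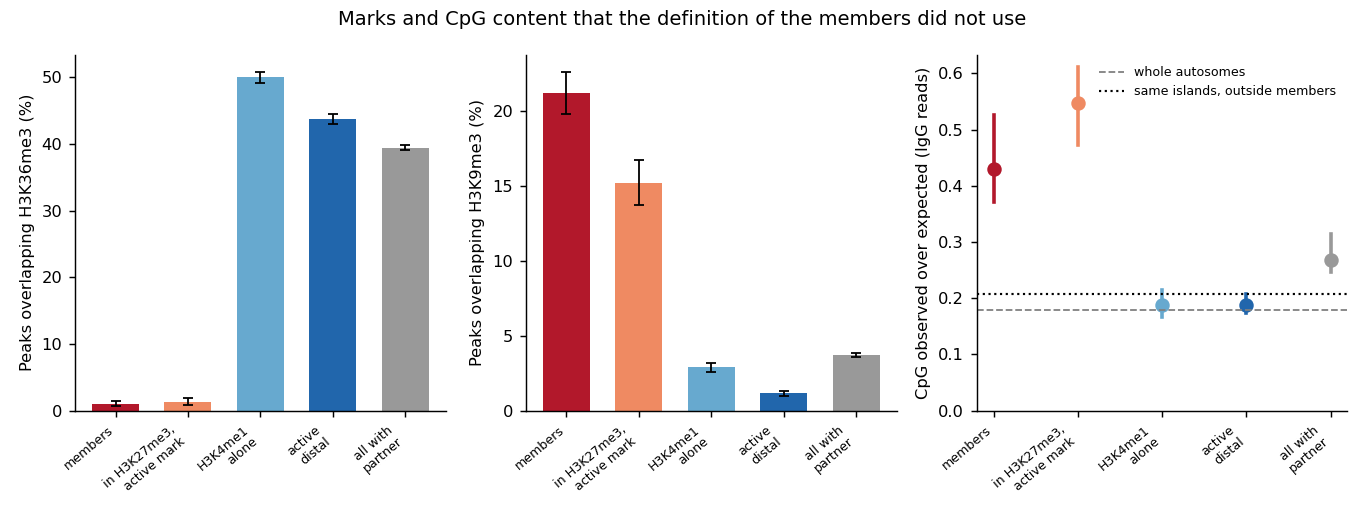
Left and middle, share (%) of H3K4me1 peaks that overlap an H3K36me3 or H3K9me3 island of either sex, with 95% Clopper-Pearson intervals; right, CpG observed over expected from IgG reads, with the range over chromosomes. Members stand at 1.07% H3K36me3, 21.1% H3K9me3 and a CpG ratio of 0.430, against 0.208 in the same islands outside them. The intervals count neighbouring peaks as separate and may be too narrow.

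Promoter windows showed the same feature in RefSeq sequence. Of 234 windows whose start lay in a member, 55.6% had a CpG ratio of at least 0.6 and the median was 17 CG. Windows in islands with members that lay on H3K4me3 without H3K27ac had 66.1% at that ratio, and the 603 windows in such islands on no member, H3K4me3 or H3K27ac had 13.1%, with a median of 5 CG. Windows on both active marks anywhere had 71.1%, and all placed windows 34.6%. Promoters inside members were thus nearer to active promoters in CpG content than to the unmarked promoters of the same islands.

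Male and female H3K4me1 differed little at members. In the authors' deposited table the log2 ratio of male over female H3K4me1 had a median of 0.12 in members (quartiles -0.14 and 0.35), against 0.12 in H3K4me1 alone, 0.02 in active distal peaks and 0.07 in all partnered peaks. A call in that table means an absolute log2 of at least 1 with a p below 0.001. The authors' deposited table called 36 members male (1.13%, 0.792 to 1.56), where 8.21% of the whole male list and 1.89% of the partnered peaks were called male. The authors' deposited table also called 17 members female (0.533%, 0.311 to 0.852), where 0.501% of the whole male list and 0.589% of the partnered peaks were called female. Since the definition asks for a peak in both sexes, the partnered peaks are the matching background, and the shares of members lie below it for male calls and near it for female calls. Peaks inside H3K27me3 with an active mark, also partnered, were called less often than members. Of these, 6 were called male (0.266%, 0.0977 to 0.578) and 2 female (0.0887%, 0.0107 to 0.320), and their median log2 was 0.12.

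Members called male had many tags in the male list and those called female few, and male tags also enter the ratio behind the call. In the authors' deposited table the 36 called male had a median of 111 male tags (quartiles 85.5 and 145.8) and the 17 called female a median of 39, with at most 53, against 64 in the members without a call. The largest male ratio was at chr16:67608391-67609063, 12091 bp from the placed start of Cadm2, a neuronal adhesion molecule, with 40 male and 69 female tags and a ratio of 1.80 on the log2 scale of the authors' deposited table. It was enriched 6.44-fold in males and 8.78-fold in females, so neither its tags nor its folds show the direction of the deposited ratio. The next, at chr1:125964938-125966871, had 170 male and 54 female tags, was given 1.78 by the authors' deposited table, and lay 775765 bp from the nearest placed start. The others of the top 5, at chr3:66168754-66170232, chr4:139626775-139628285 and chr13:100436125-100437688, had log2 ratios of 1.57, 1.56 and 1.32 in the authors' deposited table.

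The largest female ratios were at chr5:122492755-122493582, with 38 male and 259 female tags, and chr7:149816245-149817038, with 37 male and 414 female tags, both given -1.75 by the authors' deposited table. They were followed by chr7:35974501-35974870, chr6:127398259-127398834 and chr1:121120443-121121062, at -1.44, -1.28 and -1.25 in the authors' deposited table. The last of these lies in the Gli2 island. The female partners of these 5 were 999 to 2684 bp wide, against 370 to 828 bp in the male list. The male scores of these 5 were 59.72 to 87.67, against a median member of 132.4 and a list minimum of 50. Their male false discovery rates all exceeded 5%, at 32.61% and 32.36% for the first 2. They are thus weak peaks in the male list. The region at chr6:127398259-127398834 also lay 332 bp from an H3K27ac peak. The Cadm2 region, with the largest male ratio, was similarly weak, with a score of 87.06 and a rate of 12.28%.

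Members of 1 island could lean the same way. In the Gli2 island 1 of 11 members had a positive log2 in the authors' deposited table, the one on the Gli2 start at 0.39, and the median was -0.62. Of its negative values, -0.0036 and -0.00869 were near 0, and the members at -0.623 and -0.823 share a female partner. In the Hoxd island 9 of 11 were positive in the authors' deposited table, with a median of 0.54, and 1 of the exceptions, at -0.65, lies beside a member at 0.69 with which it shares its female partner. The lowest of the positive values there was 0.00145. In the Hoxa island 5 of 9 were positive, with a median of 0.04 in the authors' deposited table. H3K27me3 of the 3 islands had log2 ratios of -0.03, -0.38 and -0.36 in the authors' deposited table. Islands with 3 or more members had a median of -0.18. In the Hoxd island the 2 marks thus had opposite signs, but none of its members had a sex call. Whether the 2 marks are linked there was not tested.

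H3K27me3 of the islands that hold members was slightly shifted towards females. The ratio is that of the whole island, and members cover 3.47% of the bases of these islands. In the authors' deposited table the islands with members had a median log2 of -0.05 (95% interval -0.06 to -0.04), and other male islands that overlap a female island 0.07. For islands with 3 or more members the authors' deposited table gave a median of -0.18. A male call was deposited for 1 of 2331 islands with members and a female call for 0, where the authors' deposited table called 0.798% of all male islands male and 0.00998% female. Among the 16137 male islands that overlap a female island, the matching background, it called 0.0434% male and 0.0124% female, so the calls of islands with members are near the background. The ratio was lower in stronger islands, with or without members, as the plot of ratios by fold quintile shows. Within quintiles of fold over control, islands with members were below the others in each of the 5 quintiles, by 0.06 in the lowest (0.06 against 0.11) and by 0.14 in the highest (-0.13 against 0.01) in the authors' deposited table. The normalisation behind the ratios is not stated in any source at hand, and every one of these shifts is far under the size of a call.

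Across the 3188 members, the log2 ratio of H3K4me1 in the authors' deposited table and that of the surrounding island for H3K27me3 showed almost no common trend (Pearson r -0.015, Spearman rho -0.002), given as a description because members of 1 island share its H3K27me3 value. For the 36 members called male in the authors' deposited table, the island log2 was above 0 in 19 (52.8%, 35.5 to 69.6), and for the 17 called female in 9 (52.9%, 27.8 to 77.0). The same held for 1078 of the 3135 members without a call (34.4%). Intervals over members count those of 1 island as separate and may be too narrow.

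**Figure D5:**
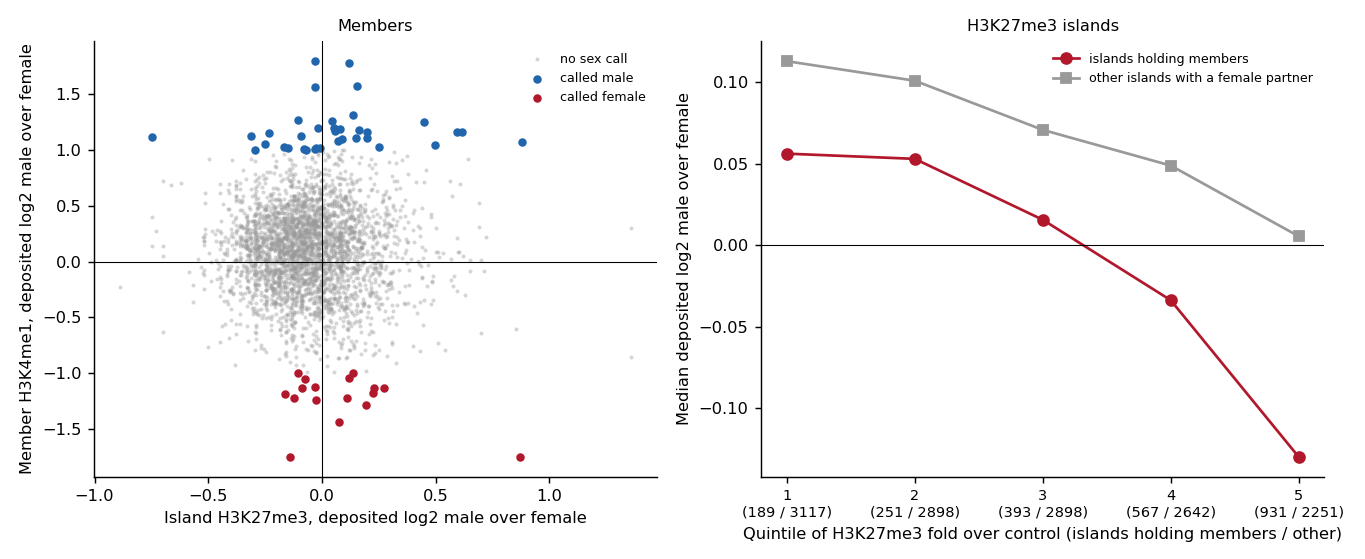
Left, the authors' deposited log2 male over female ratio of H3K4me1 in each member against that of H3K27me3 in its island; right, median deposited H3K27me3 log2 by quintile of island fold over control, with island counts. The 36 members called male lie at island ratios of -0.75 to 0.88 and the 17 called female at -0.16 to 0.87, and islands with members lie below the others in each quintile.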

How the data were processed

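The deposited lists of 6 histone marks were intersected as half-open intervals, with an overlap of at least 1 bp. The submitters' processing notes name mm9 as the build and list Bowtie and SICER 1.1. The SICER window was 400 bp with a gap of 2400 bp for both repressive marks, and 200 bp with a gap of 800 bp for H3K36me3, per the labels. Per the file headers, the lists of H3K4me1, H3K4me3 and H3K27ac have the columns of MACS peaks, with no caller version stated. Tag and read counts are whole numbers deposited by the authors. Fold ratios over control, peak scores of minus 10 times the log10 p-value, island p-values and false discovery rates in percent are the authors' own, per the file headers, and scores only rank peaks within a list. The log2 male over female ratio, its p-value and the sex call are from the authors' deposited table. The call equalled an absolute log2 of at least 1 with a p below 0.001 for 384017 of 384017 peaks, and these p-values compare pooled libraries.

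Sequence came from 1 male IgG library, deposited as 11201113 aligned reads of 35 bases, with 1 read kept per position and strand. Promoters were placed by exact matches of such reads to RefSeq windows of 300 bases (GRCm38.p6). Of 30326 matches, 99.7% had the chromosome and strand of RefSeq. Sex chromosomes, and IgG libraries besides this one, were not analysed here. Named regions are the 10 best-scoring members, the 5 islands with most members (the fifth place is tied) and the 5 largest ratios per sex call. Named genes are listed genes in an island with a member or within 50 kb of one, and the nearest placed gene to a named region. Genes named outside that rule are marked so. The members and lists were chosen with earlier results of these data known. Intervals are Clopper-Pearson at 95%, and those of medians are binomial on ranks; all cover counting error only. The interval code was tested on simulated data. Python 3.11.15, pandas 2.3.3, numpy 2.4.6 and scipy 1.17.1 were used.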

Additional observations from a re-analysis of the deposited data

How the results depend on the processing

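The number of members stayed between 2594 and 3113 under 6 of 7 alternatives, which include a stricter female overlap (3112), a member fully inside the female island (3113), no active peak within 1 kb (3063) or 5 kb (2644), stronger islands (2594) and exchanged sexes (3109, overlapping 94.9% of members). Among the better-scoring 50% of male H3K4me1 peaks it was 995. The H3K36me3 share was 0.408% when at least 50% of a member had to be covered and 1.61% in the better-scoring 50%. The deposited H3K4me1 log2 median was 0.0488 after centring on partnered peaks and 0.22 in the better-scoring 50%. The island H3K27me3 median was -0.11 after centring on partnered islands, and the gap between islands with members and others, -0.12, was -0.0756 as a mean over fold quintiles, an alternative chosen after seeing the data. Requiring the active peak in both lists gave 21.7% for H3K4me3 and 18.7% for H3K27ac in the island. With all IgG reads the relative density was 0.818. The other 15 of 25 alternatives, among them the 2 H3K9me3 shares (19.9% and 20.8%) and the CpG ratios (0.380 to 0.411), stayed within the interval, range or factor set for them, and 0 reversed. Overlap with both H3K9me3 lists was not among these alternatives. It held for 3.36% of members, far below the share for either list. No paired analysis was possible because the lists of a mark and sex are pooled, and leaving out a library was not possible for the same reason. The main limits are the missing spread between animals, the weaker score of most members, the single IgG library behind the CpG values, and gene names for placed promoters alone.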
